A study of Mus musculus with 6 samples.

Results

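The 39 genes described here encode the aminoacyl-tRNA synthetases of the cytosol and of mitochondria, the stress transcription factor ATF4, and genes known as its targets. They were chosen by name, and all 39 were found among the 23951 gene rows of the deposited table. They comprise 20 cytosolic synthetase genes, 11 mitochondrial synthetase genes, and 8 genes made up of Atf4 and its targets Atf5, Asns, Chac1, Trib3, Ddit3, Ddit4 and Sesn2. RNA was measured in mouse splenic CD8+ T cells that were wild type (WT) or Tcf1/Lef1-deficient, the latter called double knockout (DKO) below. Both groups carried hCD2-Cre and a Rosa26-lsl-GFP reporter, and the DKO mice in addition had floxed alleles of the genes for Tcf1 (Tcf7) and Lef1. Naive cells were sorted as GFP+ TCRbeta+ CD62Lhi CD44lo-med CD8+ and cultured for 72 h in IL-7 plus IL-15, which sustain T cells and their slow division. Each group has 3 libraries. The human CD2 promoter is known to drive Cre in lymphocytes from early in their development, before the naive stage. Ages and sexes of the mice are not given in the sources used here.

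Aminoacyl-tRNA synthetases join each amino acid to its tRNA and thereby supply the ribosome. Separate nuclear genes encode most of the enzymes of the cytosol and of mitochondria. When amino acids run short or proteins misfold, kinases phosphorylate the initiation factor eIF2, general translation slows, and the ATF4 mRNA is translated more. ATF4 then binds C/EBP-ATF response elements at genes for amino acid synthesis and transport, for many cytosolic synthetases, and for stress regulators such as CHOP (Ddit3) and TRB3 (Trib3). Activated T cells are known to use ATF4 to meet the amino acid demand of growth. Because ATF4 is controlled largely through translation, the level of its mRNA is not a measure of its protein.

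The response element was searched as TGATGNAA on either strand, which reads TTNCATCA on the other, in RefSeq promoter windows of 300 bases on GRCm38.p6, from 250 bases before to 50 after each start. The 2 spellings are 1 motif read on opposite strands, and no other motif was searched. Windows were present for 32 of the 39 genes, all but Cars, Hars, Lars, Nars, Rars, Vars and Wars. The letters occurred in 8 of these 32 (25%), namely Aars, Gars, Iars, Tars, Yars, Asns, Chac1 and Trib3, against 4.51% of 27025 genes with a window. By role, 5 of 13 cytosolic synthetases (38.5%), 0 of 11 mitochondrial synthetases and 3 of 8 genes of the ATF4 group (37.5%) held the motif. All 5 cytosolic matches were among the 8 windows of synthetases listed as ATF4-responsive, and none of the 5 windows of the other cytosolic synthetases held it. A match in these letters is a description and not a binding site, and its absence says only that this window does not contain them. The first 280 bases of 5 windows, of which the last 30 follow the start, are shown to let the motif be compared between a synthetase pair and classical targets. Letters run 5′ to 3′ on the gene's strand, and capitals mark the motif. The regions are chr8:111033592-111033871 (plus strand) for Aars, chr6:55037751-55038030 (plus) for Gars, chr6:7693180-7693459 (minus) for Asns, chr2:119350992-119351271 (plus) for Chac1 and chr2:152344031-152344310 (minus) for Trib3.
Aars: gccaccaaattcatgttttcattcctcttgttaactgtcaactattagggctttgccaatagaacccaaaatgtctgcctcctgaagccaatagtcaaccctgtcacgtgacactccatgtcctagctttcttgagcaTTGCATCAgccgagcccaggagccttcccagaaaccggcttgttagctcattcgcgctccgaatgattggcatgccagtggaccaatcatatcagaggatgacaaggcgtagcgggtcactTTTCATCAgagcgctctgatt
Gars: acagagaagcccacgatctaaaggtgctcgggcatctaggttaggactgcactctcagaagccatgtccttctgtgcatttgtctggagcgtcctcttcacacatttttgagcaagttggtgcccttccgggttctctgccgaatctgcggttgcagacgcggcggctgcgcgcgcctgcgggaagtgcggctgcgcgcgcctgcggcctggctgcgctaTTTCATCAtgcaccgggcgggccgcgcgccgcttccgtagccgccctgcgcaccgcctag
Asns: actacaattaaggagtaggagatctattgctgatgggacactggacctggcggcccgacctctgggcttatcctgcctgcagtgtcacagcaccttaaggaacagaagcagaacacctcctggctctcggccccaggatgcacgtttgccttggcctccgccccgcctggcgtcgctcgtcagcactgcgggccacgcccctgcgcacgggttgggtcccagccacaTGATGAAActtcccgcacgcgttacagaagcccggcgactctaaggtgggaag
Chac1: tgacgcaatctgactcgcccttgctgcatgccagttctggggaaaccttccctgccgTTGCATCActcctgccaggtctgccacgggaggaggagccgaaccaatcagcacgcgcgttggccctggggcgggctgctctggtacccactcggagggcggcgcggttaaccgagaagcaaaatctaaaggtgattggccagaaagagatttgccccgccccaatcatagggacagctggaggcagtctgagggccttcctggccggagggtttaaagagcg
Trib3: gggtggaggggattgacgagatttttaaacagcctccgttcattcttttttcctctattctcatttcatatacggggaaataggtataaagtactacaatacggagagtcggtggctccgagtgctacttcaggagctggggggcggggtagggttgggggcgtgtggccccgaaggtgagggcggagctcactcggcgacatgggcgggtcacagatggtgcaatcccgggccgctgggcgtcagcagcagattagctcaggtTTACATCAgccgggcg
Aars, the alanyl-tRNA synthetase gene, held the motif at bases 139 to 146 and again at bases 260 to 267 of its window. Gars (glycyl-tRNA synthetase) held it at bases 221 to 228, Asns (asparagine synthetase) at bases 228 to 235, Chac1 (a glutathione-degrading enzyme) at bases 58 to 65 and Trib3 (a pseudokinase that restrains ATF4) at bases 265 to 272. Of these 5 genes, Asns and Chac1 had the lowest RNA levels of all 39.

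The targeted genes were checked first. Tcf7 averaged 550 ± 16.5 FPKM (SD, n = 3) in WT and 278 ± 9.52 in DKO, and Lef1 averaged 131 ± 26.3 and 50.9 ± 2.03, with limma adjusted p = 0.0041 and 0.0066. Before culture, the authors' deposited table gives DKO against WT log2 differences of -0.10 for Tcf7 (Cuffdiff q = 0.53) and -1.51 for Lef1 (q = 0.00031). The Tcf7 level was thus not called lower at 0 h, and gene-level FPKM does not measure the deletion itself. FPKM scales fragments to transcript length and library size, so genes can be compared within a library but absolute depth is unknown. Low values placed the libraries at relative depths of 1.0 to 1.213, and 10473 to 10551 genes reached 1 FPKM in each. The CD8 T cell markers Cd8a and Cd8b1 reached at least 551 and 1023 FPKM in every library, with log2 differences (DKO minus WT) of -0.017 and -0.054. Cd3d of the same list averaged 378 FPKM in WT and 251 in DKO, with all DKO libraries below all WT libraries. Its log2 difference was -0.57 (limma adjusted p = 0.14), and the authors' Cuffdiff q was 0.0027. Cd3e and Cd3g had 0.26 and 0.31, with overlapping groups (limma adjusted p = 0.26 and 0.34). The 6 B cell markers summed to 13.3 to 21.8 FPKM in WT and 17.96 to 27.02 in DKO. Nearly all of that was Cd79b, at 13.1 to 26.5 FPKM, and Ms4a1 and Pax5 were listed at 0 in all libraries. The 2 markers of CD4 cells summed to 0.0934 to 0.561 FPKM in WT and 0.689 to 3.36 in DKO, and the 5 NK markers to 47.5 to 96.9 and 17.1 to 22.8. Most of the NK sum was Eomes, a transcription factor gene that CD8 T cells also express, and the other 4 markers summed to 5.41 to 7.08 in WT and 8.75 to 12.9 in DKO. The 6 myeloid markers summed to 70.5 to 103 FPKM in WT and 65.95 to 115 in DKO, most of it Cst3 (65.0 to 113 FPKM). The part of these markers in the results below was not tested. In such bulk RNA, fewer cells of a type and less RNA per cell cannot be told apart. The labels do not tie the libraries to separate animals or cultures, so p-values describe the spread between these libraries, which may be technical. Libraries are named 0 to 2 after the columns of the table.

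Most of the 39 genes differed little between DKO and WT cells at 72 h. Of the 37 that averaged at least 1 FPKM, 1 gene, the mitochondrial seryl-tRNA synthetase Sars2, was lower in DKO at an adjusted p under 0.05, and 0 were higher. The tests came from limma on log2(FPKM + 1) over 10723 genes, with Benjamini-Hochberg adjustment over all of them, and called 10.7% of genes, 4.31% higher and 6.36% lower. At an unadjusted p under 0.05, 9 members were lower and 0 higher, where 13.6% of all genes were lower and 12.6% higher. The authors' own Cuffdiff q-values in the deposited table called 3 lower and 0 higher, against 9.97% and 6.54% of all genes. Fitted log2 differences (DKO minus WT) were below 0 for 30 and above 0 for 7, with a median of -0.15, against 0.0082 over all genes tested. Without WT library 1 they were below 0 for 27 and above 0 for 10, with a median of -0.081. The DKO libraries lay below all WT libraries for 14 members and above them for 0, while 17.1% and 17% of all genes did so, 34.1% together. With rows of small RNAs left out and FPKM rescaled, the median of all genes moved to 0.16, that of the members to 0.020, and 30 of 37 again lay below the all-gene median. The direction of small differences from 0 therefore depends on the scaling, and the position relative to other genes changed little.

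**Figure D1:**
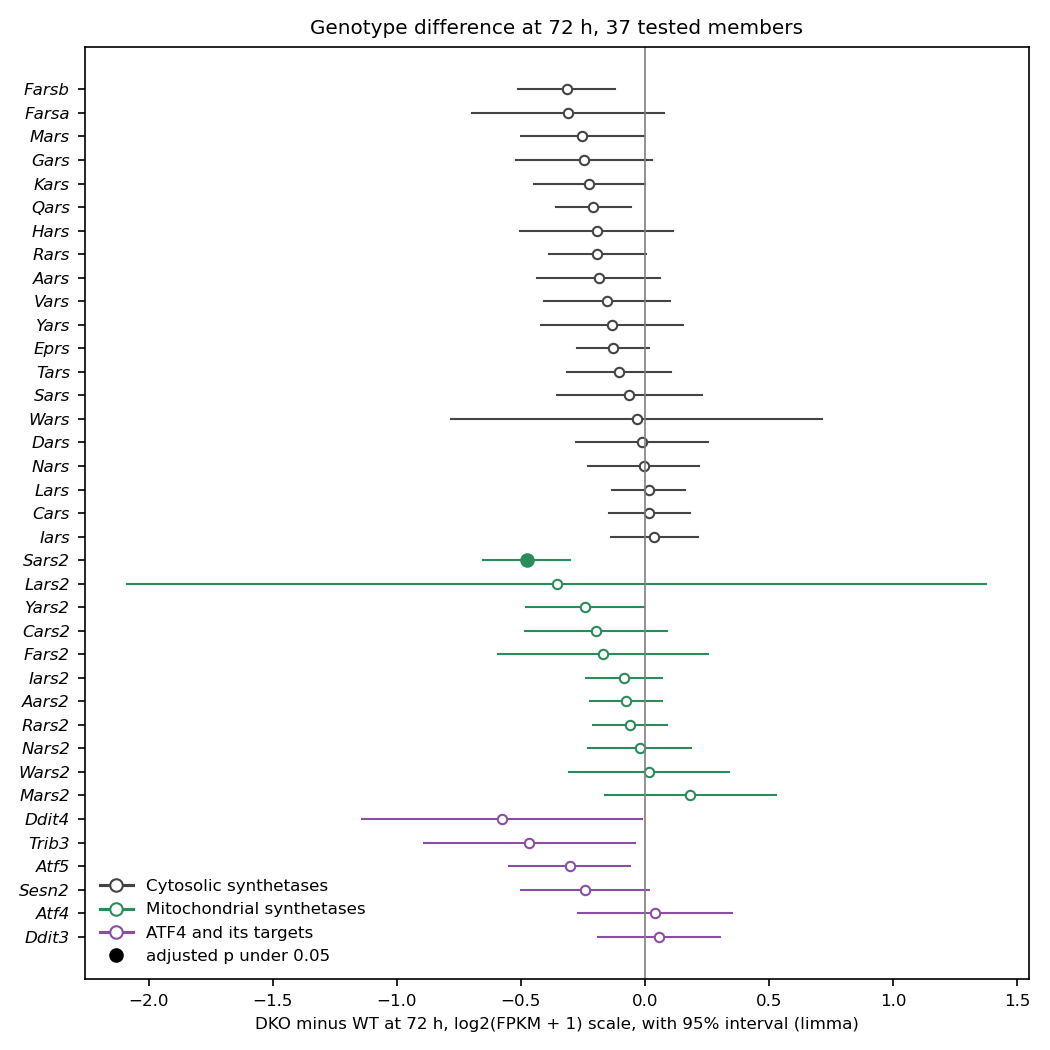
Difference between DKO and WT at 72 h on the log2(FPKM + 1) scale for the 37 tested genes, with 95% limma intervals (n = 3 libraries per group); a filled point marks an adjusted p under 0.05. Sars2 is the filled point, at -0.48, and 30 of the 37 estimates lie left of 0.

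The cytosolic synthetases were all expressed, from 8.63 FPKM for Cars (cysteine) to 103 FPKM for Kars (lysine) and Vars (valine), averaged over the 6 libraries. After Kars and Vars came Gars at 67.5, Qars (glutamine) at 61.4, Nars (asparagine) at 59.2 and Sars (serine) at 55.7 FPKM. Wars (tryptophan), Farsa, Dars (aspartate), Hars (histidine) and Rars (arginine) lay between 48.6 and 54.0 FPKM, and their libraries overlapped. Below them were Eprs, the fused glutamate and proline enzyme, at 41.6 FPKM, Farsb at 34.4, Tars (threonine) at 32.0 and Mars (methionine) at 29.7. Iars (isoleucine), Lars (leucine), Aars and Yars (tyrosine) averaged 25.1, 23.96, 21.2 and 17.5 FPKM. The genes of this group thus stood at widely different transcript levels.

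**Figure D2:**
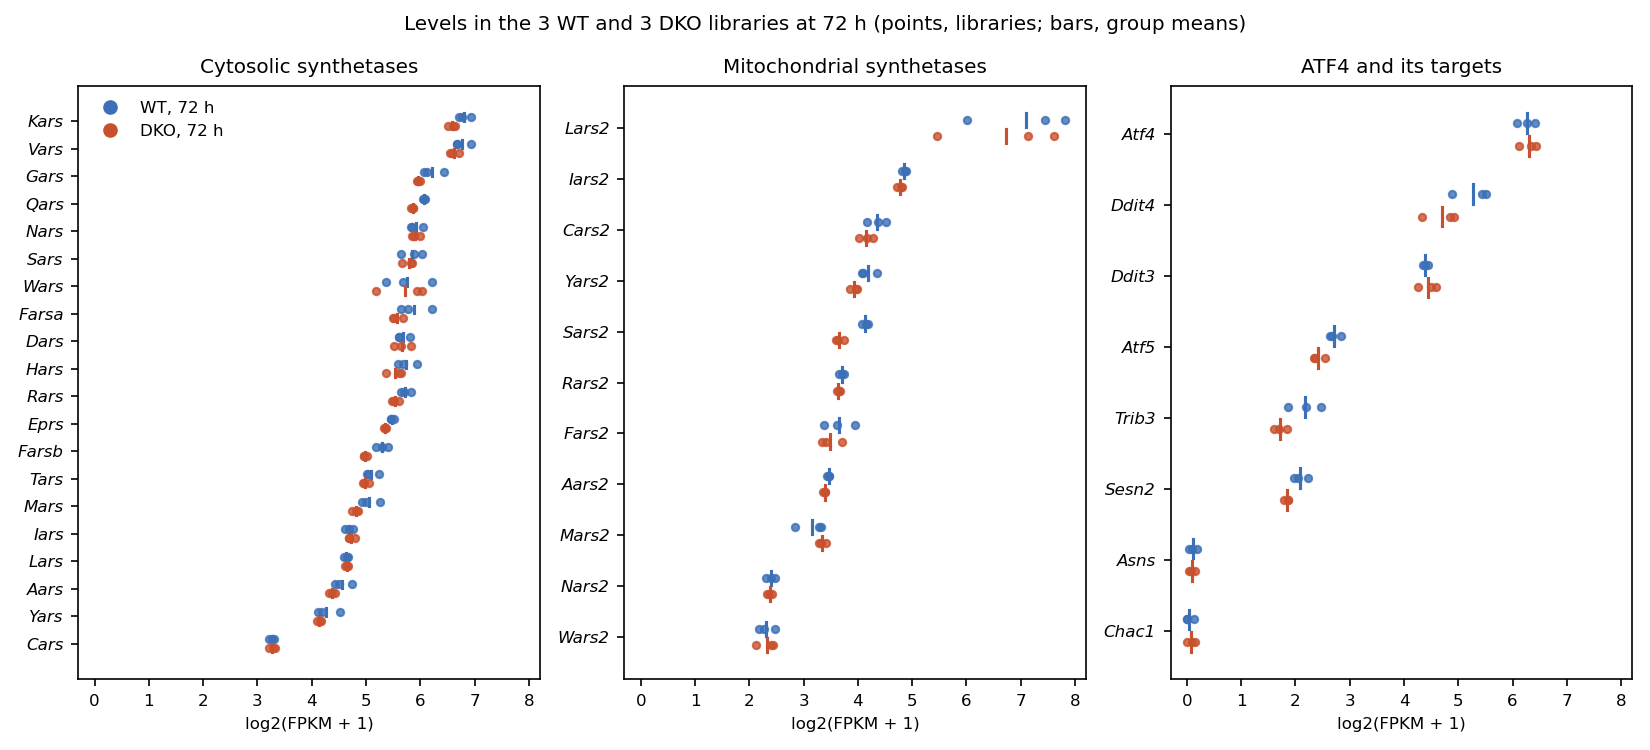
Levels of the 39 genes in each library at 72 h as log2(FPKM + 1), by gene group, with genes ordered by their mean; points are libraries and bars group means (3 WT, 3 DKO). Points of both genotypes lie close together for most genes, Lars2 and Wars are spread widely within both groups, and Asns and Chac1 sit near 0.

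Of the 20 cytosolic synthetases, 0 passed the limma threshold in either direction, 4 had an unadjusted p under 0.05 (all lower in DKO, against 13.6% of all genes), and Cuffdiff called 0. Their median log2 difference was -0.14, from -0.32 for Farsb to 0.038 for Iars, with 17 values below 0 and 3 above. Farsb, the beta subunit of phenylalanyl-tRNA synthetase, came nearest to a call. Its WT libraries read 35.1, 41.5 and 38.2 FPKM and its DKO libraries 30.1, 31.2 and 30.1 FPKM. All DKO libraries lay below all WT libraries, but the log2 difference of -0.32 (SE 0.080) had an adjusted p of 0.062 in limma, and it passed, at 0.049, only after median-ratio scaling among 15 alternatives. The alpha subunit gene Farsa read 48.97, 72.8 and 53.8 FPKM in WT and 44.9, 50.003 and 44.4 in DKO, a difference of -0.31 (SE 0.16, limma adjusted p = 0.28). The groups of Farsa overlapped, because DKO library 1 exceeded WT library 0, and WT library 1 stood well above the rest.

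Qars (glutaminyl-tRNA synthetase) had even libraries within each group. It read 66.1, 66.5 and 65.1 FPKM in WT and 55.9, 57.4 and 57.5 in DKO, a log2 difference of -0.21 (SE 0.062, limma adjusted p = 0.096). The gap between the groups was wider than the range within either, yet it did not pass after adjustment over all genes. Kars read 108, 121 and 104 FPKM in WT and 89.9, 98.6 and 95.6 in DKO, a difference of -0.22 (SE 0.091, adjusted p = 0.19). Mars read 31.2, 37.01 and 29.3 in WT and 27.9, 25.8 and 27.2 in DKO, a difference of -0.25 (SE 0.10, adjusted p = 0.18). Both sets of libraries separated without passing, as did those of Gars (-0.25), Rars (-0.19) and Eprs (-0.13). Hars (-0.19), Aars (-0.19), Vars (-0.15), Yars (-0.13), Tars (-0.10) and Sars (-0.064) had log2 differences below 0 with overlapping groups, and none had an unadjusted p under 0.05.

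A further set of cytosolic genes stood at nearly the same level in both genotypes. Lars, the leucyl-tRNA synthetase known in human cells as a leucine sensor upstream of mTORC1, read 24.2, 23.0 and 24.3 FPKM in WT and 24.5, 24.2 and 23.5 in DKO. Its log2 difference was 0.015, with a 95% interval from -0.13 to 0.16. For Nars the difference was -0.0044 (-0.23 to 0.22), for Cars 0.017 (-0.15 to 0.18), for Iars 0.038 (-0.14 to 0.21) and for Dars -0.012 (-0.28 to 0.26). These intervals leave room for modest differences either way. Wars, whose human gene is interferon-inducible, read 50.1, 73.0 and 40.4 FPKM in WT and 35.2, 64.7 and 60.4 in DKO, and its difference had an interval from -0.78 to 0.71. The libraries of Wars spread widely in both groups.

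Cytosolic synthetases divide into enzymes listed as ATF4-responsive and the rest. The 13 ATF4-responsive genes (Aars, Cars, Eprs, Gars, Iars, Lars, Mars, Nars, Sars, Tars, Vars, Wars, Yars) had 0 calls, 1 unadjusted p under 0.05 (lower), 0 Cuffdiff calls and a median difference of -0.10. The other 7 (Dars, Farsa, Farsb, Hars, Kars, Qars, Rars) had 0 calls, 3 unadjusted p under 0.05 (lower), 0 Cuffdiff calls and a median of -0.21. Of all genes, 13.6% were lower at that unadjusted threshold, and 17.1% had all DKO below all WT libraries. The ATF4-responsive genes thus had the median nearer 0, and the difference between the lists was not tested. By catalytic class, the median was -0.13 over 9 class I and -0.19 over 10 class II genes. Of 11 genes of the multisynthetase complex, which holds several synthetases on the scaffold proteins encoded by Aimp1, Aimp2 and Eef1e1, 0 were called by limma or Cuffdiff, 4 had an unadjusted p under 0.05 (lower), and 7 had all DKO below all WT libraries. Its scaffold gene Aimp1 read 71.2, 91.3 and 73.4 FPKM in WT and 64.5, 63.4 and 57.5 in DKO (difference -0.34, limma adjusted p = 0.14).

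Much of the shift in the cytosolic group came with WT library 1. That library was the highest of the 6 for 15 of 20 cytosolic synthetases and 23 of 37 members, and for 30% of all genes tested. Relative to the mean of the 6 libraries, the median cytosolic synthetase lay at 0.22 in WT library 1, at 0.0039 and -0.0078 in WT libraries 0 and 2, and at -0.079, -0.042 and -0.10 in the DKO libraries. Without WT library 1 the median difference was -0.079 in place of -0.14, with 14 values below 0 and 6 above. The median of the 13 ATF4-responsive genes was then -0.011, with 8 below 0 and 5 above. That of the other 7 cytosolic genes was -0.14, with 6 below 0 and 1 above. For the 11 mitochondrial synthetases it was -0.070 in place of -0.084, with 9 below 0 and 2 above. The myeloid marker Lyz2 read 4.30 FPKM in WT library 1 and 0.052 to 0.95 in the others. Fcer1g, Csf1r and Cd14 were also highest in WT library 1, and Cst3 and Itgam in DKO library 0. Whether myeloid RNA has a part in the shift was not tested.

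**Figure D3:**
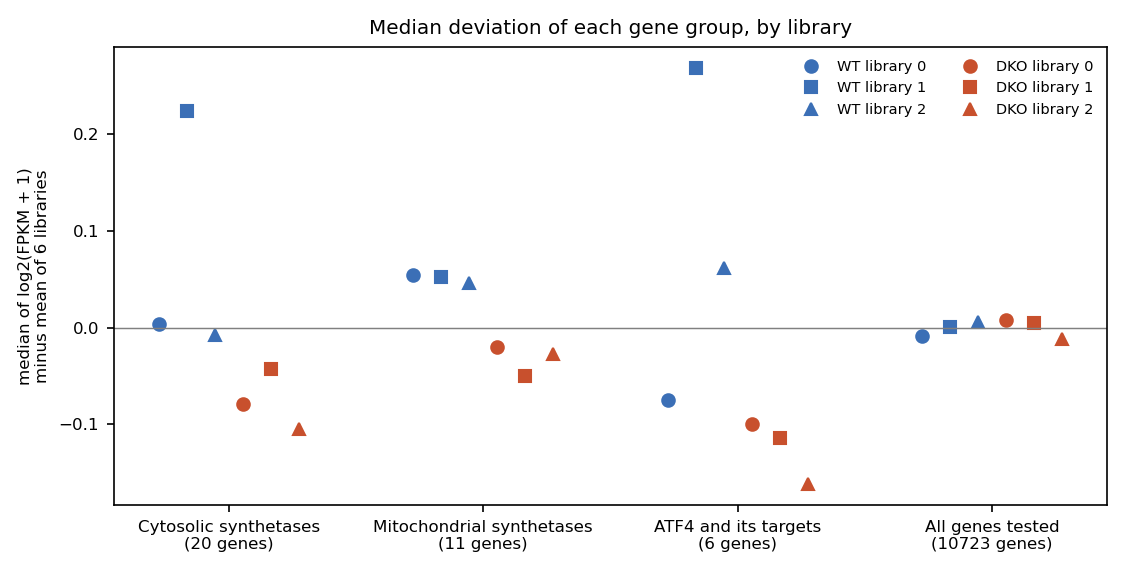
Median over each gene group of log2(FPKM + 1) minus the gene's mean over the 6 libraries, by library (shapes, library number; colours, genotype). WT library 1 is highest for the cytosolic synthetases (0.22) and for ATF4 and its targets (0.27), and the median of all 10723 genes stays near 0 in every library.

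Among the 11 mitochondrial synthetases, Sars2 fell in DKO cells. It read 15.8, 17.2 and 16.7 FPKM in WT and 11.5, 12.4 and 11.03 in DKO. Every DKO library lay well below every WT library, and the mean fell by 29.8% (16.6 ± 0.717 against 11.6 ± 0.689 FPKM, SD, n = 3). The log2 difference was -0.48 (SE 0.071, 95% interval -0.65 to -0.30, limma adjusted p = 0.014), and the authors' deposited table gives -0.51 with q = 0.014. The call was lost without WT library 2 (-0.47, adjusted p = 0.052), DKO library 0 (-0.47, 0.066) or DKO library 2 (-0.44, 0.054), while the value moved little. It was also lost without small RNA rows and with equal FPKM sums, at -0.32 (limma adjusted p = 0.23), where the median of all genes was 0.16. Sars2 lies on chromosome 7 at 28741992 to 28753871 (plus strand, GENCODE M21, GRCm38).

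The other mitochondrial synthetases did not pass. Yars2 (tyrosine) read 15.8, 19.5 and 16.2 FPKM in WT and 14.9, 14.5 and 13.5 in DKO, a difference of -0.24 (SE 0.098, limma adjusted p = 0.19), with groups that separated. Aars2 (9.83 to 10.1 FPKM in WT, 9.20 to 9.58 in DKO) and Iars2 (27.3 to 28.5, 25.3 to 27.2) separated too, by -0.077 and -0.084. Small differences in even libraries thus gave separated groups without a call. Cars2, Fars2, Rars2 and Nars2 had differences of -0.20, -0.17, -0.059 and -0.021 with overlapping groups, and Wars2 and Mars2 had 0.016 and 0.18. Over the 11 genes the median was -0.084, with 9 values below 0.

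Lars2, the mitochondrial leucyl-tRNA synthetase, had the widest spread of the 37 tested members. It read 63.1, 226 and 174 FPKM in WT and 195, 140 and 42.9 in DKO, a 5.25-fold range, and its difference of -0.36 had an interval from -2.09 to 1.37. WT library 0 and DKO library 2 were low and the other 4 high, across genotypes. Rn45s, the row of the 45S ribosomal RNA precursor, was looked at after these values were seen. It read 486, 1698 and 1455 FPKM in WT and 1638, 1190 and 450 in DKO, so the 6 libraries have the same order for both rows. Whether reads of ribosomal RNA are counted in Lars2 was not tested, and its level is uncertain.

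In the ATF4 group, the mRNA of Atf4 itself was level between genotypes. It read 67.1, 84.3 and 76.2 FPKM in WT and 85.6, 80.2 and 68.4 in DKO, a log2 difference of 0.040 (95% interval -0.27 to 0.35). Ddit3, the gene of the pro-apoptotic factor CHOP, read 19.3, 20.8 and 19.9 in WT and 23.1, 21.5 and 18.1 in DKO, a difference of 0.057 (-0.19 to 0.30). The groups of both genes overlapped throughout. Asns ranged from 0.026 to 0.14 FPKM and Chac1 from 0 to 0.10, with WT libraries 0 and 1 and DKO library 2 listed at 0. These textbook targets were barely detected in either genotype and were not tested.

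The other 4 targets had lower values in DKO, and 0 of the 6 tested genes of this group passed in limma. At an unadjusted p under 0.05, 3 were lower (13.6% of all genes were), and the authors' q-values called 2, Ddit4 and Trib3. Ddit4, which encodes the mTORC1 inhibitor REDD1, read 28.5, 42.1 and 44.7 FPKM in WT and 27.8, 29.4 and 19.0 in DKO. WT library 0 sat among the DKO libraries, so the groups overlapped. Its difference was -0.58 (SE 0.23, limma adjusted p = 0.18), while the authors' deposited table gives -0.60 with q = 0.00064. Trib3 read 2.66, 4.52 and 3.56 FPKM in WT and 2.57, 2.24 and 2.02 in DKO. The groups separated narrowly, by WT library 0 against DKO library 0, with a difference of -0.47 (SE 0.17, limma adjusted p = 0.16) on a scale that understates changes of low genes. The authors' deposited table gives -0.65 with q = 0.050, just under their threshold.

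Atf5, a related transcription factor induced downstream of ATF4, read 5.22, 6.14 and 5.39 FPKM in WT and 4.04, 4.14 and 4.84 in DKO, a difference of -0.30 (SE 0.0998, limma adjusted p = 0.12). Sesn2, encoding a leucine-sensing inhibitor of mTORC1, read 3.13, 3.69 and 2.93 in WT and 2.65, 2.48 and 2.62 in DKO, a difference of -0.24 (SE 0.10, adjusted p = 0.21). Both had every DKO library below every WT library without a call. WT library 1 was again the highest for Atf5, Trib3 and Sesn2.

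Genes around the pathway, listed with earlier results of these data known, gave 5 limma calls among 62 tested, where 10.7% of all genes were called. Amino acid synthesis had the lowest values, with 2 lower and 0 higher of 9 tested, 7 with all DKO below all WT libraries, and a median of -0.35. Over all genes, 6.36% were called lower, 4.31% were called higher, and 17.1% had all DKO below all WT libraries. Mthfd2, the mitochondrial folate enzyme and an ATF4 target, read 33.9, 35.2 and 32.8 FPKM in WT and 8.95, 9.92 and 10.5 in DKO. Mthfd2 was lower in DKO by 1.70 on the log2 scale (SE 0.077, limma adjusted p = 0.00062), beyond any overlap of libraries. The authors' deposited table has it lower already at 0 h (-1.30, Cuffdiff q = 0.00031). Psat1, an enzyme of serine synthesis, fell by 0.57 (SE 0.12, adjusted p = 0.036), from 39.7, 49.1 and 42.6 FPKM to 26.2, 32.8 and 28.3. Shmt2, of glycine synthesis, had -0.35 (adjusted p = 0.072). The authors' Cuffdiff q-values called 4 of the 9 synthesis genes lower and 0 higher, against 9.97% and 6.54% of all genes. Besides Mthfd2 and Psat1 these were Phgdh (-0.53, q = 0.0032) and Got1 (-0.42, q = 0.031). In limma, Phgdh had -0.50 (adjusted p = 0.16) and Got1 -0.40 (adjusted p = 0.12). Of 7 amino acid transport genes tested, 1 passed: Slc7a5, the light chain of the LAT1 transporter, fell by 0.36 (SE 0.060, adjusted p = 0.019), from 33.6, 35.4 and 33.8 to 26.0, 26.7 and 26.7 FPKM. Slc43a1, another neutral amino acid transporter, had -0.41 (adjusted p = 0.21), and the glutamine transporter gene Slc38a1 -0.15 (adjusted p = 0.29). The partner chain of Slc7a5, Slc3a2, had 0.17 (adjusted p = 0.34), with overlapping libraries.

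Upstream of ATF4, Eif2ak3, which encodes the ER stress kinase PERK, rose in DKO by 0.44 (SE 0.10, limma adjusted p = 0.049), from 13.5, 10.7 and 12.4 to 17.9, 15.4 and 17.4 FPKM. The call held in 4 of 15 alternatives. It was lost with median-ratio scaling (adjusted p = 0.060), without small RNA rows (0.12), and when any single library was left out (0.060 to 0.17). Eif2ak3 was the 1 call among 15 genes of eIF2, its exchange factor, its kinases and its phosphatase. At an unadjusted p under 0.05, 2 of the 15 were higher and 3 lower, where 12.6% of all genes were higher and 13.6% lower. The eIF2 subunit genes Eif2s2 and Eif2s1 had -0.32 (SE 0.078, adjusted p = 0.056) and -0.31 (SE 0.092, adjusted p = 0.095), each with all DKO below all WT libraries. Eif2ak4, the gene of the amino acid sensor kinase GCN2, read 3.98, 2.75 and 3.58 in WT and 4.65, 4.14 and 4.91 in DKO (0.33, adjusted p = 0.18). Among 8 tested partners and other targets of ATF4, Cebpb, a bZIP partner, fell by 0.94 (SE 0.18, adjusted p = 0.029), from 7.03, 11.7 and 7.98 to 4.04, 4.38 and 3.78 FPKM. Cebpg, another partner, had -0.25 (adjusted p = 0.072) with separated groups, Stc2, a secreted glycoprotein, 0.48 (adjusted p = 0.18), and Xpot, the tRNA export receptor, 0.0099 (adjusted p = 0.95). The 5 calls dropped to 1 under the replicate block and to between 1 and 3 when single libraries were left out. Mthfd2 kept its call in all 15 alternatives, Cebpb in 8, Slc7a5 in 6 and Psat1 in 5.

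Over culture, the authors' deposited table compares 72 h with 0 h in each genotype. Libraries at 0 h were not analysed here, so the values below are the authors' group values, and levels at 0 h are derived from their 72 h level and log2 fold change. By q under 0.05, a change of at least 2-fold and at least 1 FPKM, the authors' deposited table called 2 members higher (Lars2, Trib3) and 1 lower (Atf4) in WT, where 8.8% and 4.49% of all genes passed. In DKO it called 1 higher (Lars2) and 2 lower (Atf4, Ddit4), where 5.68% and 3.88% passed. By q alone, the authors' deposited table called 12 members higher and 4 lower in WT (26% and 22.6% of all genes) and 11 and 3 in DKO (24.9% and 20.8%). With an absolute log2 fold change of 0.5 or more as well, it called 8 and 2 in WT (19.3% and 14.4%) and 3 and 3 in DKO (15.9% and 11.5%).

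Atf4 mRNA fell in both genotypes, from 183 to 72.8 FPKM in WT and from 195 to 77.5 in DKO in the authors' deposited table, 2.51-fold and 2.52-fold lower. Ddit3 went from 33.1 to 19.2 FPKM in WT (log2 -0.79, q = 0.044) and from 27.7 to 20.8 in DKO (-0.41, q = 0.24). Trib3 went the other way in the authors' deposited table, from 0.79 to 3.44 FPKM in WT (2.13, q = 0.00020) and from 1.13 to 2.26 in DKO (0.997, q = 0.00044). Ddit4 went from 49.6 to 36.9 FPKM in WT (-0.43, q = 0.0030) and from 61.9 to 25.2 in DKO (-1.30, q = 0.00023). Ddit4 and Trib3 thus show different sizes of change in each genotype, and the difference between genotypes over time was not tested. Lars2 rose by 1.59 in WT and 1.49 in DKO, and Rn45s by 1.39 and 1.18, in the authors' deposited table.

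Several cytosolic synthetases were higher after culture in the authors' deposited table. Vars had 0.84 in WT and 0.50 in DKO, Wars 0.81 and 0.49, Hars 0.67 and 0.35, Kars 0.52 and 0.47, and Rars 0.48 and 0.37 (log2, q under 0.05 in both genotypes). Aars went from 14.6 to 21.8 FPKM in WT (0.58, q = 0.00020) and from 19.9 to 19.6 in DKO (-0.021, q = 0.90), and Gars from 51.8 to 70.5 (0.45) and from 58.4 to 61.0 (0.062, q = 0.69). Cars was lower after culture in both, at -0.35 and -0.70. The median over the 20 genes was 0.22 in WT and 0.081 in DKO, against 0.014 and 0.017 over all genes of at least 1 FPKM. For the mitochondrial genes it was 0.14 and 0.20, with Aars2 higher in both (0.61 and 0.81), and for the amino acid synthesis list 0.78 and 0.59.

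**Figure D4:**
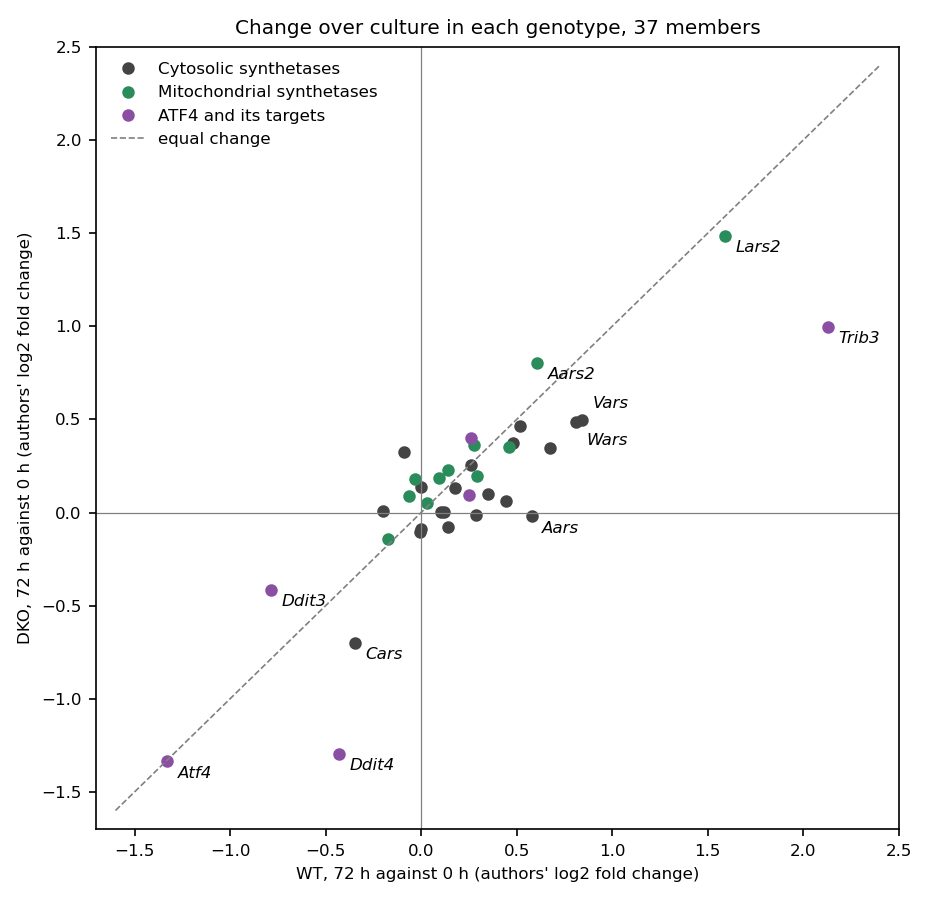
Log2 fold change from 0 h to 72 h in WT (horizontal) and DKO (vertical) in the authors' deposited table for 37 genes; the dashed line marks equal change, and each point is a group comparison without replicate error. Atf4 lies on the line at -1.33 in both, Trib3 and Aars lie below it, and Ddit4 lies at -0.43 and -1.30.

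Before culture, the authors' deposited table called 0 members at 2-fold between DKO and WT (2.97% of all genes were higher and 2.43% lower). By q alone 4 were higher in DKO at 0 h, Aars (0.38), Cars (0.35), Wars (0.28) and Ddit4 (0.25), and 6 were lower, Farsb (-0.76), Sars2 (-0.43), Qars (-0.36), Aars2 (-0.30), Fars2 (-0.30) and Dars (-0.23). Of all genes, 14.8% were higher and 17.2% lower by that rule in the authors' deposited table. With an absolute log2 fold change of 0.5 or more as well, 0 members were higher and 1, Farsb, lower (7.65% and 8.53%). Sars2 in DKO was at 10.1 FPKM against 12.96 before culture and at 11.5 against 15.9 after it, by the authors' group levels. Farsb stood at 24.2 against 39.1 FPKM at 0 h, and at 30.2 against 36.7 at 72 h, in the authors' deposited table. These levels come from separate runs for each genotype, whose scales may differ. The authors' direct comparisons at 72 h give -0.51 for Sars2 and -0.33 for Farsb. Among the 5 genes around the pathway called by limma at 72 h, 3 were already lower in DKO at 0 h by the authors' q-values. They were Mthfd2 (-1.30, q = 0.00031), Slc7a5 (-0.49, q = 0.00031) and Psat1 (-0.33, q = 0.0095). Eif2ak3 (0.068, q = 0.67) and Cebpb (0.082, q = 0.61) were not called at 0 h. Comparisons that share a group are not independent, and these values are set side by side only.

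Some members share exonic sequence with a neighbour in GENCODE M21, and whether strand was used in counting is not stated. Aars shares 14.3% of its exon bases with Exosc6 on the same strand, and Iars2 22.9% with Rab3gap2, Farsb 9.47% with Sgpp2, Fars2 8.72% with Nrn1 and Hars 7.97% with Hars2 on the opposite strand. Mars and Ddit3 overlap by 68 bases at their ends. The values of these genes may include reads of the partner.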

How the data were processed

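RNA from 3 WT and 3 DKO samples at 72 h was sequenced on a HiSeq-2000, per the labels, and groups came from the sample titles. The authors deposited 1 table of 23951 genes with FPKM for each library, scaled in a run on both groups, and with log2 fold changes and q-values of pairwise comparisons that include groups at 0 h. Tools in the submitters' processing notes are FastQC, TopHat2 2.1.0 and Cuffdiff 2.2.1, and builds are mm9 and mm10, whose roles are not stated. The annotation and strand setting are not given in the sources used here. Of 36 library columns, 6 were used, and 30 were not analysed here, 18 of 0 h groups and 12 that repeat 72 h libraries from other runs. Column numbers run from 0 to 2 and those of the labels from 1 to 3, so libraries were placed in groups only.

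Values were tested here as log2(FPKM + 1), which understates changes of low genes, for genes averaging at least 1 FPKM over the 6 libraries. The test was limma 3.58.1 (R 4.3.3) with a mean-variance trend and genotype as the term, two-sided, with Benjamini-Hochberg adjustment at 0.05 over all genes tested. It was tested on simulated data first. FPKM are not counts, so no count model was used. Relative depth was read from the spacing of low FPKM values in 1741 to 2027 genes, of which 15.1% to 18.8% gave the modal ratio within 0.02 (natural log). The authors' comparisons were read at q under 0.05 with a log2 fold change beyond 1 in size and 1 FPKM or more in either group. Same-numbered columns of both genotypes deviated with correlations of -0.17, 0.036 and -0.014 across genes, so numbers were not treated as pairs.

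Members and gene lists were chosen with earlier results of these data known. All members are named, and from other lists the 3 genes with the smallest p, called genes, and genes chosen after their values were seen (Eif2ak4, Slc3a2, Xpot, Hspa5, Rn45s and genes described over culture). Some items are not reported here. Alternatives were other pseudocounts (0.1 and 5 FPKM), filters, scalings, a replicate block, leaving out libraries, and the authors' q-values. The setting without small RNA rows also left out Rn45s and set the FPKM sums of all libraries equal. With all rows in, sums ran from 672688 (DKO library 2) to 902348 (WT library 1). Changes in that setting therefore cannot be assigned to the small RNA rows alone. Figures used Python 3.11.15 with pandas 2.3.3 and matplotlib 3.10.9.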

Additional observations from a re-analysis of the deposited data

How the results depend on the processing

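Member values were recomputed under 15 settings, giving 550 values, of which 541 kept their side of the threshold, 6 lost the call (Sars2) and 3 gained one (Farsb, Trib3, Ddit4). The sign changed in 35, none of them called in either fit, and 12 of these were among the 37 values without small RNA rows. The number of all genes called, 1144, became 750 without small RNA rows (391 higher, 359 lower, against 462 and 682), 356 with the replicate block, 388 to 765 with 1 library left out, 28 without WT library 0 and DKO library 2 together, and 1743 by the authors' q-values. Cytosolic synthetases called went from 0 to 1 with median-ratio scaling. Mitochondrial synthetases called went from 1 to 0 without small RNA rows, with the replicate block (Sars2 adjusted p = 0.074), and without the 2 libraries together (0.094), and ranged from 0 to 1 with single libraries left out. The ATF4 group went from 0 to 2 by the authors' q-values. Calls in other pathway lists (1 higher, 4 lower; 0 and 5 with median-ratio scaling) went from 5 to 3 without a filter, 2 without small RNA rows, 1 with the block, 1 without both libraries, and 1 to 3 with single libraries left out. The columns share only a number, so calls lost under the block do not show a weaker effect.

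In the authors' comparisons, members higher in WT at 72 h went from 2 to 8 with a log2 threshold of 0.5 and 12 with none, and lower from 1 to 2 and 4. In DKO, higher went from 1 to 3 and 11. At 0 h, higher in DKO went from 0 to 4 with no fold threshold, and lower from 0 to 1 and 6. With 3 libraries per group and unknown depth, differences of the size seen in most synthetases were mostly below what the adjusted test called, and their absence is not shown.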

Other observations

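The arm of the ER stress response that runs through ATF6 and XBP1 was read beside the ATF4 genes. Of its 15 genes, 0 passed between DKO and WT at 72 h in limma. At an unadjusted p under 0.05, 1 was lower (13.6% of all genes were), and the authors' q-values called 1 lower (9.97%). Both times it was Sdf2l1, an ER chaperone cofactor. Sdf2l1 read 41.8, 75.1 and 46.1 FPKM in WT and 34.6, 38.7 and 27.3 in DKO (log2 difference -0.65, SE 0.25, limma adjusted p = 0.17). Its DKO libraries lay below its WT libraries, of which WT library 1 was far the highest. Hspa5, the ER chaperone BiP, read 130, 176 and 126 in WT and 127, 142 and 128 in DKO, a difference of -0.11. Herpud1, of ER-associated degradation, had 0.28 (limma adjusted p = 0.21), and Xbp1, the transcription factor gene, 0.18 (adjusted p = 0.34).

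Over culture, genes of stress signalling moved in different directions in the authors' deposited table. Ppp1r15a, which encodes the inducible eIF2 phosphatase subunit GADD34, went from 241 to 9.41 FPKM in WT and from 237 to 11.6 in DKO (log2 -4.68 and -4.36). Dnajb9, an ER cochaperone, had -2.97 and -2.49, and Hspa5 -0.77 and -1.01, in the authors' deposited table. Sdf2l1 went the other way, from 11.8 to 52.1 FPKM in WT and from 14.7 to 33.3 in DKO, by the authors' group levels. Phgdh and Psat1, enzymes of serine synthesis, were higher after culture in the authors' deposited table by 1.05 and 1.48 in WT and by 0.85 and 1.21 in DKO, while Cebpb was lower, at -1.66 and -2.89. Pars2, a mitochondrial prolyl-tRNA synthetase gene that is not a member, had 1.33 and 0.78. No difference between genotypes in these changes was tested.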
